A study of Homo sapiens with 2 samples.

Results

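Cholesterol and fatty acid synthesis was examined through 29 genes, chosen by name among the 30238 gene names of the array and kept as 22 sterol genes and 7 fatty acid genes. The sterol genes were 16 enzymes of cholesterol synthesis and 6 genes that regulate it or carry its products. All 29 names were on the array, with 49 probes, and 15 of the genes had more than 1 probe. The parent, A2780, is an established human line from an ovarian carcinoma. A2780CBN was derived from it by selection to 22.2 µM carboplatin, a platinum drug that damages DNA. A2780CBNDXL was selected in carboplatin together with docetaxel, a taxane that stabilises microtubules, and its labels give 8.02 µM for the combination. The study names that figure as the carboplatin part of the inhibitory concentration of the line, with docetaxel at a far lower molar concentration, and a lower dose as the one reached in selection. Selection was by stepwise dose increase, and each line was set against A2780CC, A2780 cells kept in culture in parallel without drug. A control was developed for each resistant line according to the methods, but the labels carry 1 name, A2780CC, for both, so that it is not known whether the controls on the arrays were separate cultures. RNA of 3 isolations was pooled to give 1 sample per line. That sample was hybridized with its control to 4 arrays, arrays 1 and 3 with forward and arrays 2 and 4 with reverse labelling, of which arrays 1 and 2 lay on slide 1 and arrays 3 and 4 on slide 2. The SD given after ± is over these arrays, so it covers labelling and hybridization error and not the spread between cultures, and no test across samples was possible.

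Cells make cholesterol from acetyl-CoA through the mevalonate pathway, which leads to squalene, lanosterol and then, by removal of methyl groups and movement of double bonds, to cholesterol. The transcription factor SREBP-2, product of SREBF2, drives most of these genes, and SREBP-1, product of SREBF1, leans towards the fatty acid genes. SCAP escorts both to the Golgi for cleavage when membrane sterol is low, and the INSIG proteins hold SCAP back when sterol is plentiful. Sterol genes therefore often move as a group. In tumour cells the pathway supplies membranes and lipid anchors for growth.

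On each array 59.8 to 67.5% of spots rose well above background, depending on the channel. Spike-in controls varied by 3.56 to 4.87%, except on array 1 of A2780CBNDXL, where they varied by 19.5 and 20.0% in the green and red channels. Of the markers examined, KRT8, KRT18 and PAX8, which mark epithelial and Müllerian cells, were well above background in 16 of 16 channels, EPCAM in 15 and KRT19 in 12, whereas CDH1 and WT1 were so in 0. The leukocyte gene PTPRC, the endothelial gene PECAM1, ADIPOQ and ALB were above background in 0 channels, but the T cell gene CD3E was above it in 16.

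A gene was counted as higher or lower when 3 conditions held: a mean log2 ratio, resistant line over control, of at least 1 in size (2-fold); the same sign on each of the 4 arrays; and, on each of them, at least 1 channel well above background. A gene was read from its brightest probe. In A2780CBN 8 of the 19 sterol genes that could be counted were higher than in the control and 0 were lower, where 8% of all 17957 genes were higher and 4.55% were lower. They were HMGCS1, FDFT1, TM7SF2, SC4MOL, HSD17B7, SC5DL, INSIG1 and STARD4. The median log2 ratio of these 19 genes was 0.81, against -0.06 for all genes, and on single arrays it ran from 0.69 to 1.05. A total of 17 of the 19 lay above 0 on all 4 arrays, a pattern seen in 27.7% of all genes. The other 3 sterol genes, MVK, PMVK and SCAP, had a spot marked as an outlier on array 4 and could not be counted.

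In A2780CBNDXL most, but not all, of the sterol genes lay on the other side of their control. There 5 of 20 sterol genes were lower, HMGCS1, HSD17B7, INSIG1, INSIG2 and STARD4, where 9.2% of all 17122 genes were lower. Only PMVK was higher, where 7.7% of all genes were. The median log2 ratio of the 20 genes was -0.38, against 0.04 for all genes, and 13 of them lay below 0 on all arrays, as 33.0% of all genes did. FDPS and LSS had an outlier spot on array 3 and could not be counted. With normexp background correction and loess normalization, 2 of the 6 sterol calls in this line were left. INSIG2 stayed lower and PMVK higher, where 3.99% of all genes were lower and 2.85% higher. In A2780CBN HSD17B7 and STARD4 then missed the limit.

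**Figure D1:**
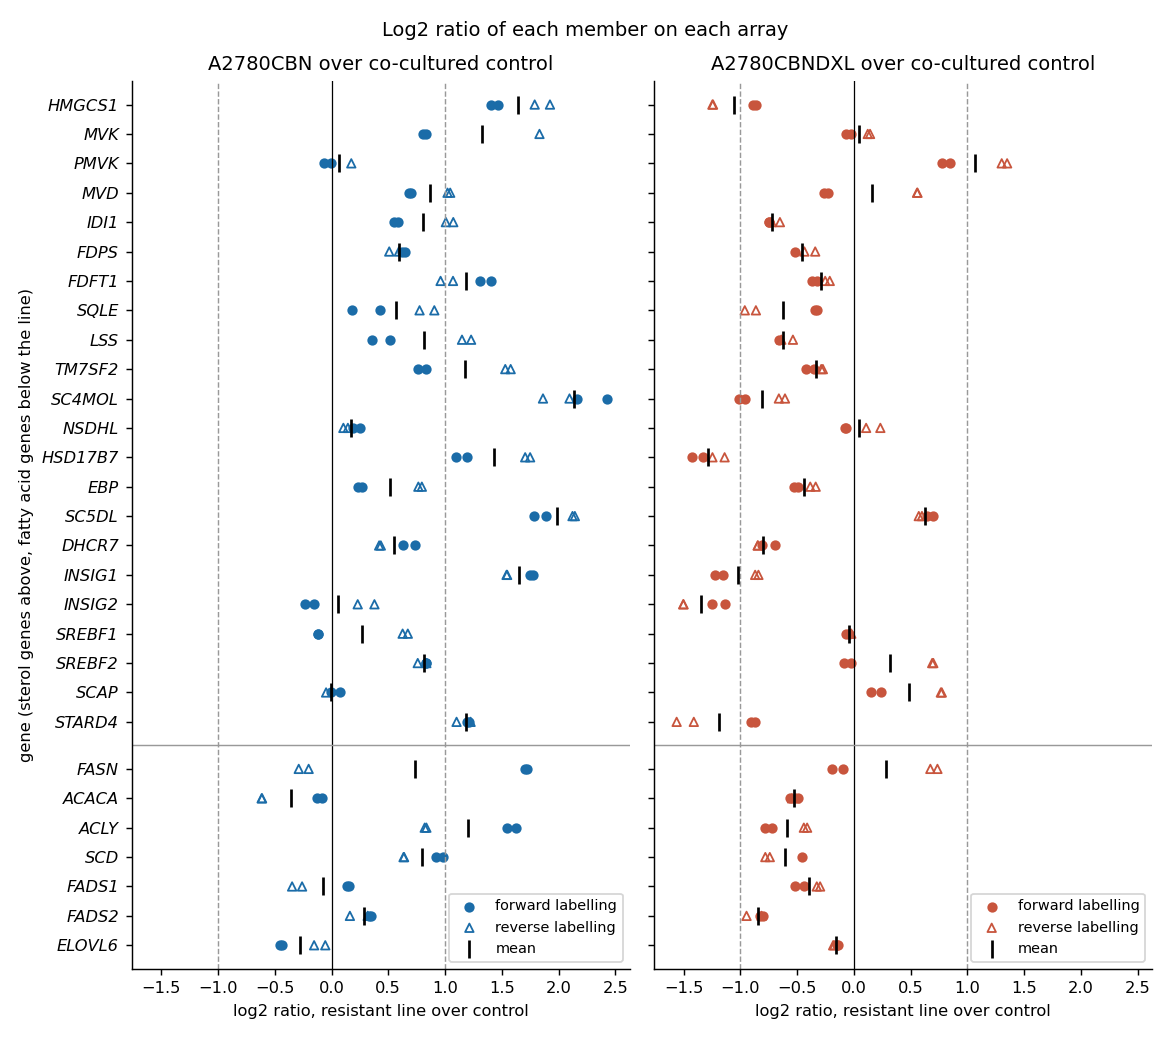
Log2 ratio of resistant line over control for the 29 genes (rows) in A2780CBN (left) and A2780CBNDXL (right), with filled circles for forward and open triangles for reverse labelled arrays and a black bar for the mean. Dashed lines mark 2-fold. Most sterol genes lie right of 0 in A2780CBN (median 0.81) and left of 0 in A2780CBNDXL (median -0.38), and FASN is split by labelling direction in both.

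HMGCS1, the cytosolic synthase that makes HMG-CoA at the entry to the mevalonate pathway, was read by a probe at chr5:43325874-43325933 of NCBI36. On arrays 1 to 4 of A2780CBN its log2 ratio was 1.47, 1.79, 1.40 and 1.92, with a mean of 1.65 ± 0.25. On those of A2780CBNDXL it was -0.89, -1.24, -0.86 and -1.25, with a mean of -1.06 ± 0.21. The arrays of the lines did not overlap, and another HMGCS1 probe gave 1.58 ± 0.09 and -1.12 ± 0.08.

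Of the kinases and later enzymes of the mevalonate pathway, MVK, the mevalonate kinase, had ratios of 0.83, 1.83 and 0.80 on 3 arrays of A2780CBN and a mean of 0.04 ± 0.11 in A2780CBNDXL. Its dimmer probe had 1.62, 0.89, 1.52 and 0.81 in A2780CBN, a mean of 1.21 ± 0.42, and 0.84 ± 0.65 in A2780CBNDXL. PMVK, which adds the next phosphate, was above 0 on all arrays of A2780CBNDXL, as were SC5DL and SCAP. It stood at 0.85, 1.30, 0.78 and 1.35 on the arrays of A2780CBNDXL, a mean of 1.07 ± 0.30, and at 0.07 ± 0.13 on 3 arrays of A2780CBN. MVD, the decarboxylase, had 0.86 ± 0.20 in A2780CBN and 0.16 ± 0.46 in A2780CBNDXL, where forward and reverse arrays had opposite signs. IDI1, the isomerase, had 0.80 ± 0.28 and -0.72 ± 0.05, and FDPS, which makes farnesyl diphosphate, had 0.59 ± 0.06 and -0.45 ± 0.09 on 3 arrays. IDI1 and FDPS thus lay on opposite sides of 0 in the lines but under 2-fold.

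FDFT1, the squalene synthase, was higher in A2780CBN, with 1.41, 1.07, 1.31 and 0.96 on its arrays and a mean of 1.19 ± 0.21, and stood at -0.29 ± 0.07 in A2780CBNDXL. SQLE, the squalene epoxidase, and LSS, which closes the sterol rings to form lanosterol, stayed under 2-fold. SQLE had a mean of 0.57 ± 0.33 in A2780CBN and -0.62 ± 0.34 in A2780CBNDXL. LSS had 0.81 ± 0.44 in A2780CBN and, on 3 arrays, -0.62 ± 0.06 in A2780CBNDXL.

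SC4MOL, now named MSMO1, the oxidase that begins removal of the C4 methyl groups, was higher in A2780CBN. Its arrays gave 2.16, 1.86, 2.43 and 2.10, a mean of 2.14 ± 0.23 or 4.40-fold, which normexp and loess lowered to 1.23 on the log2 scale. In A2780CBNDXL they gave -1.01, -0.61, -0.96 and -0.66, a mean of -0.81 ± 0.21, below the 2-fold limit. The probe lies at chr4:166482640-166482699 of NCBI36.

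HSD17B7, a reductase of the same demethylation steps, had 1.10, 1.75, 1.19 and 1.71 in A2780CBN, a mean of 1.44 ± 0.34, and -1.43, -1.14, -1.33 and -1.25 in A2780CBNDXL, a mean of -1.28 ± 0.12. Its other probe gave 1.35 ± 0.28 and -1.25 ± 0.12. That probe is no independent reading, because it starts 20 bases further along the same exon junction, at chr1:161039943-161040733 against chr1:161039923-161040713. NSDHL, the dehydrogenase that works between these enzymes, was near 0 in both lines, at 0.17 ± 0.06 and 0.05 ± 0.15.

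TM7SF2, a sterol C14 reductase, was higher in A2780CBN at 0.76, 1.58, 0.83 and 1.53, a mean of 1.17 ± 0.44, and had -0.33 ± 0.07 in A2780CBNDXL. Its other probe gave 1.20 ± 0.24 and 0.28 ± 0.35, so that the sign in A2780CBNDXL depended on the probe. SC5DL, now named SC5D, the C5 desaturase, did not turn over between the lines. It had 1.89, 2.12, 1.79 and 2.14 in A2780CBN, a mean of 1.98 ± 0.18, and 0.70, 0.57, 0.65 and 0.60 in A2780CBNDXL, a mean of 0.63 ± 0.06, and its 2 further probes gave 1.93 and 2.37 in A2780CBN, with 0.63 and 0.69 in A2780CBNDXL. EBP, the sterol isomerase, had 0.52 ± 0.31 and -0.44 ± 0.09, and DHCR7, which catalyses a last reduction to cholesterol, had 0.55 ± 0.15 and -0.80 ± 0.07.

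Among the regulators, INSIG1, itself a sterol-responsive gene, behaved like HMGCS1. Its arrays gave 1.78, 1.55, 1.75 and 1.54 in A2780CBN, a mean of 1.65 ± 0.13. In A2780CBNDXL they gave -1.15, -0.84, -1.22 and -0.87, a mean of -1.02 ± 0.19, which just passed the limit and missed it on slide 1 alone. INSIG2, the related retention protein, was lower in A2780CBNDXL at -1.14, -1.50, -1.25 and -1.50, a mean of -1.35 ± 0.18, but stood at 0.05 ± 0.30 in A2780CBN. STARD4, which carries cholesterol between membranes, was higher in A2780CBN at 1.21, 1.10, 1.19 and 1.23, a mean of 1.18 ± 0.06. It was lower in A2780CBNDXL at -0.91, -1.41, -0.87 and -1.56, a mean of -1.19 ± 0.35.

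The genes of the transcription factors and their escort stayed under 2-fold. SREBF2 had 0.83, 0.84, 0.83 and 0.76 in A2780CBN, a mean of 0.81 ± 0.04. In A2780CBNDXL it had -0.09, 0.70, -0.03 and 0.69, so that forward and reverse labelling gave opposite signs, whereas its other probe had 0.31, 0.80, 0.25 and 0.88, all above 0. SREBF1 had the same labelling split in A2780CBN, with -0.12, 0.63, -0.12 and 0.67, whereas its other probe had 0.59, 0.09, 0.55 and 0.06. In A2780CBNDXL the brightest SREBF1 probe stood at -0.04 ± 0.02 and the other gave 0.59 ± 0.42. SCAP had -0.01 ± 0.06 on 3 arrays of A2780CBN and 0.48 ± 0.33 in A2780CBNDXL. These are transcript ratios and carry no information on cleavage of the SREBP proteins.

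Of the fatty acid genes, 1 of 7 was higher and 0 were lower in A2780CBN, where 8% of all genes were higher and 4.55% lower. In A2780CBNDXL 0 of 6 passed the limit in either direction, where 7.7% of all genes were higher and 9.2% lower. Both counts thus lay near the share of all genes. SCD had an outlier spot on array 1 of A2780CBNDXL and could not be counted there. A dimmer SCD probe, read on all 4 arrays, was beyond 2-fold in that line, at -1.42 ± 0.16. The medians of the counted fatty acid genes were 0.29 and -0.46, against -0.06 and 0.04 for all genes. In A2780CBNDXL 5 of the 6 lay below 0 on all arrays, as 33.0% of all genes did. In A2780CBN 3 of the 7 lay above 0 on all arrays and 2 below, as 27.7 and 33.1% of all genes did. At a limit of 1.5-fold, which 27.1% of all genes passed in A2780CBN and 33.3% in A2780CBNDXL, 2 fatty acid genes passed in each line, and 13 and 11 sterol genes. In A2780CBN the median changed sign with the labelling, from 0.35 and 0.33 on the forward arrays to -0.15 and -0.05 on the reverse arrays.

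ACLY, which splits citrate to give cytosolic acetyl-CoA for both pathways, was the gene that passed, with 1.62, 0.84, 1.54 and 0.82 in A2780CBN, a mean of 1.21 ± 0.44. It had -0.59 ± 0.19 in A2780CBNDXL. FASN, the fatty acid synthase, could not be read, since its forward arrays in A2780CBN gave 1.72 and 1.70 and its reverse arrays -0.20 and -0.29. In A2780CBNDXL the split ran the other way, with -0.20 and -0.10 against 0.67 and 0.74. ACACA, the carboxylase that makes malonyl-CoA, had -0.36 ± 0.29 and -0.53 ± 0.03, and its other probe had the opposite sign in A2780CBNDXL, at 0.17 ± 0.26.

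SCD, the desaturase that makes oleate, gave 0.79 ± 0.18 in A2780CBN and -0.61 ± 0.18 on 3 arrays of A2780CBNDXL. Its probes disagreed in A2780CBN, where those at chr10:102110682-102110741 and chr10:102097940-102097999 gave -0.43 ± 0.16 and -0.20 ± 0.16. In A2780CBNDXL the same probes gave -1.42 ± 0.16 and -0.93 ± 0.20, on the same side as the brightest one. FADS1 and FADS2, the desaturases of long polyunsaturated fatty acids, had -0.08 ± 0.26 and 0.29 ± 0.09 in A2780CBN and -0.40 ± 0.10 and -0.85 ± 0.07 in A2780CBNDXL. The other FADS2 probe was split by labelling in both lines, with 1.16, -0.52, 0.95 and -0.57 in A2780CBN and -0.27, 0.40, -0.36 and 0.33 in A2780CBNDXL. ELOVL6, an elongase, had -0.28 ± 0.20 and -0.16 ± 0.02, while its other probe gave -1.07 ± 0.06 and -0.55 ± 0.18.

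**Figure D2:**
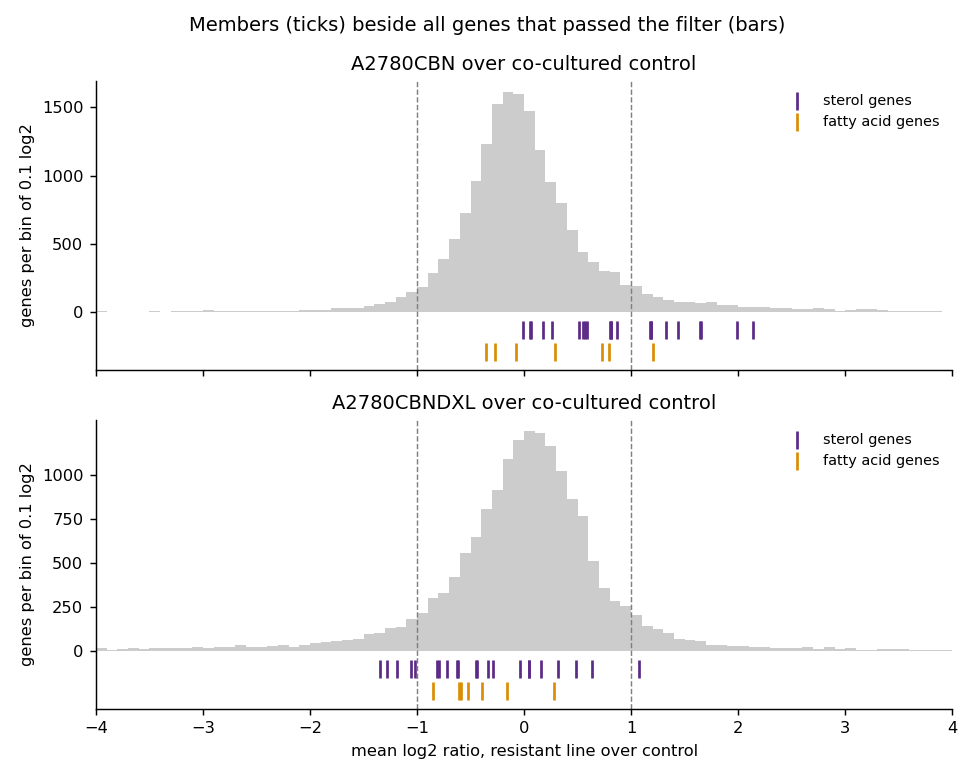
Number of genes per bin of 0.1 in mean log2 ratio of resistant line over control (grey bars) for all genes that passed the filter, with ticks for the 22 sterol and 7 fatty acid genes under them and dashed lines at 2-fold. Most sterol ticks lie right of the median of all genes in A2780CBN (-0.06) and left of it in A2780CBNDXL (0.04). In A2780CBNDXL the median of the 20 counted sterol genes, -0.38, is close to the lower quartile of all genes, -0.37.

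A ratio depends on the control as much as on the line, so the channels were also compared across the arrays, after scaling between arrays and matched by slide and labelling. The resistant line channel of A2780CBNDXL was lower than that of A2780CBN in 6 of 17 sterol genes by the 2-fold rule and higher in 0, where 10.1% of all genes were lower and 6.47% higher. The control channel went the opposite way. It was higher beside A2780CBNDXL than beside A2780CBN in 5 of 17 sterol genes and lower in 0, where 3.15% of all genes were higher and 1.43% lower. The median difference of the sterol genes was -0.80 between the lines and 0.63 between the controls, against 0.05 and -0.02 for all genes. Without array 1 of each line, which leaves out the array with the variable spike-in controls, the medians were -0.64 and 0.72.

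HMGCS1 shows how the ratios arose. Its scaled log2 level was 12.94 in A2780CBN beside 11.30 in the control, and 11.45 in A2780CBNDXL beside 12.51 in the control. The difference between the lines was -1.49 ± 0.27 and that between the controls 1.22 ± 0.19. HSD17B7 had 10.20 in A2780CBN beside 8.76, and 8.81 in A2780CBNDXL beside 10.10, so that its level in each line was close to that in the control of the other. The controls also differed by at least 2-fold in SC4MOL at 1.03 ± 0.28, INSIG1 at 1.04 ± 0.22 and INSIG2 at 1.41 ± 0.91. INSIG2 had a difference of 0.00 ± 0.61 between the lines, and its control difference was 0.10 on array 1 and 1.47 to 2.08 on the others. Between the lines SC4MOL differed by -1.92 ± 0.14, INSIG1 by -1.64 ± 0.14, STARD4 by -1.41 ± 0.24 and IDI1 by -1.09 ± 0.57. The IDI1 difference was -1.93 on array 1 and -0.74 to -0.94 on the others, so that it passed only with array 1. Among the fatty acid genes ACLY passed between the lines, at -1.43 ± 0.11, and 0 of 6 passed between the controls.

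**Figure D3:**
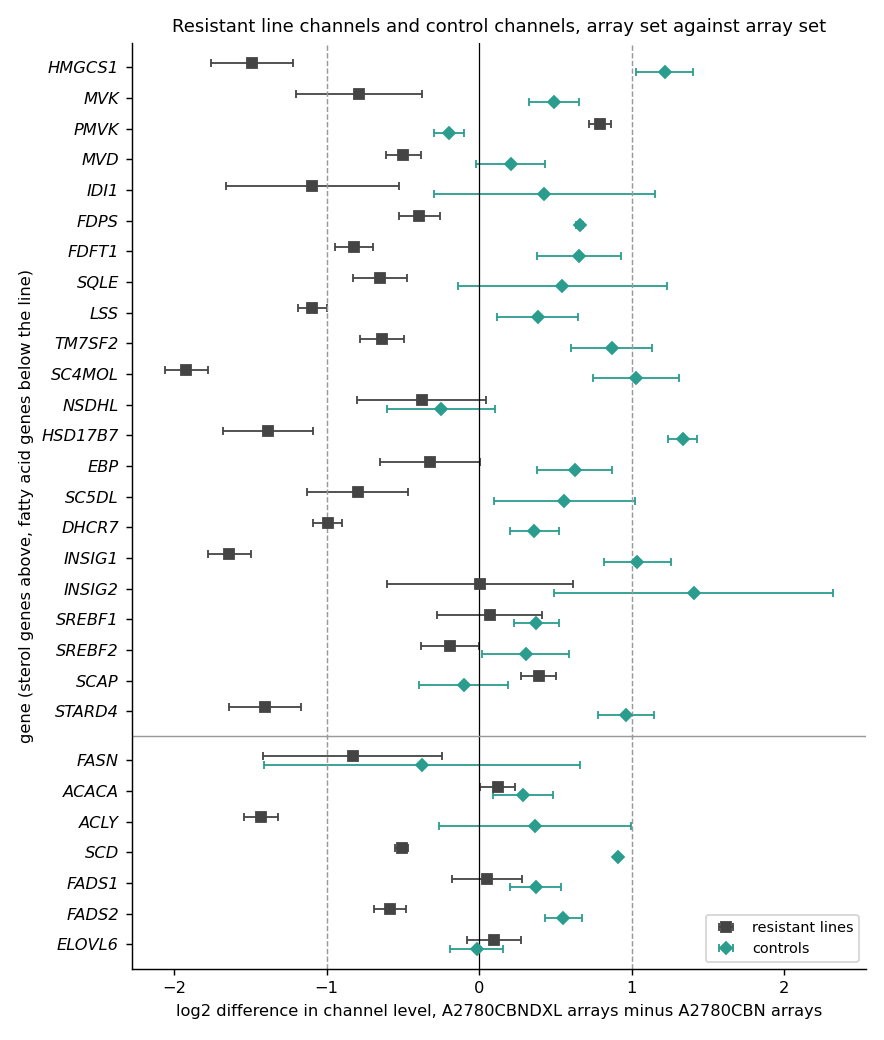
Difference in scaled log2 channel level, arrays of A2780CBNDXL minus arrays of A2780CBN, for the resistant line channels (squares) and the control channels (diamonds), as mean and SD over the matched arrays. For most sterol genes the squares lie left and the diamonds right of 0, with medians of -0.80 and 0.63.

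With the controls exchanged, each line being read against A2780CC from the arrays of the other line, most of the sterol calls were lost. In A2780CBN 2 of 17 sterol genes were higher, SC4MOL at 1.11 ± 0.10 and SC5DL at 1.43 ± 0.37, where 7.73% of all genes were higher, and INSIG2 was lower, where 5.87% were. In A2780CBNDXL SC5DL alone was higher, at 1.19 ± 0.41, where 8.48% of all genes were higher, and 0 were lower, where 9.13% were. The median of the sterol genes was 0.38 in A2780CBN and 0.16 in A2780CBNDXL. HMGCS1 then had 0.43 ± 0.06 in A2780CBN and 0.16 ± 0.04 in A2780CBNDXL, and INSIG1 had 0.62 ± 0.11 and 0.02 ± 0.08. SC4MOL and SC5DL were thus at least 2-fold higher in A2780CBN against either control. FASN, split by labelling against its own control, came to 1.11 ± 0.10 in A2780CBN with the other control. The difference between its controls was split by labelling too, at 0.56, -1.23, 0.48 and -1.31 on arrays 1 to 4. FASN therefore still could not be read. The shift from one control to the other is the same quantity in both lines by construction. Whether the controls differed as cultures, in growth state or in labelling was not tested.

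**Figure D4:**
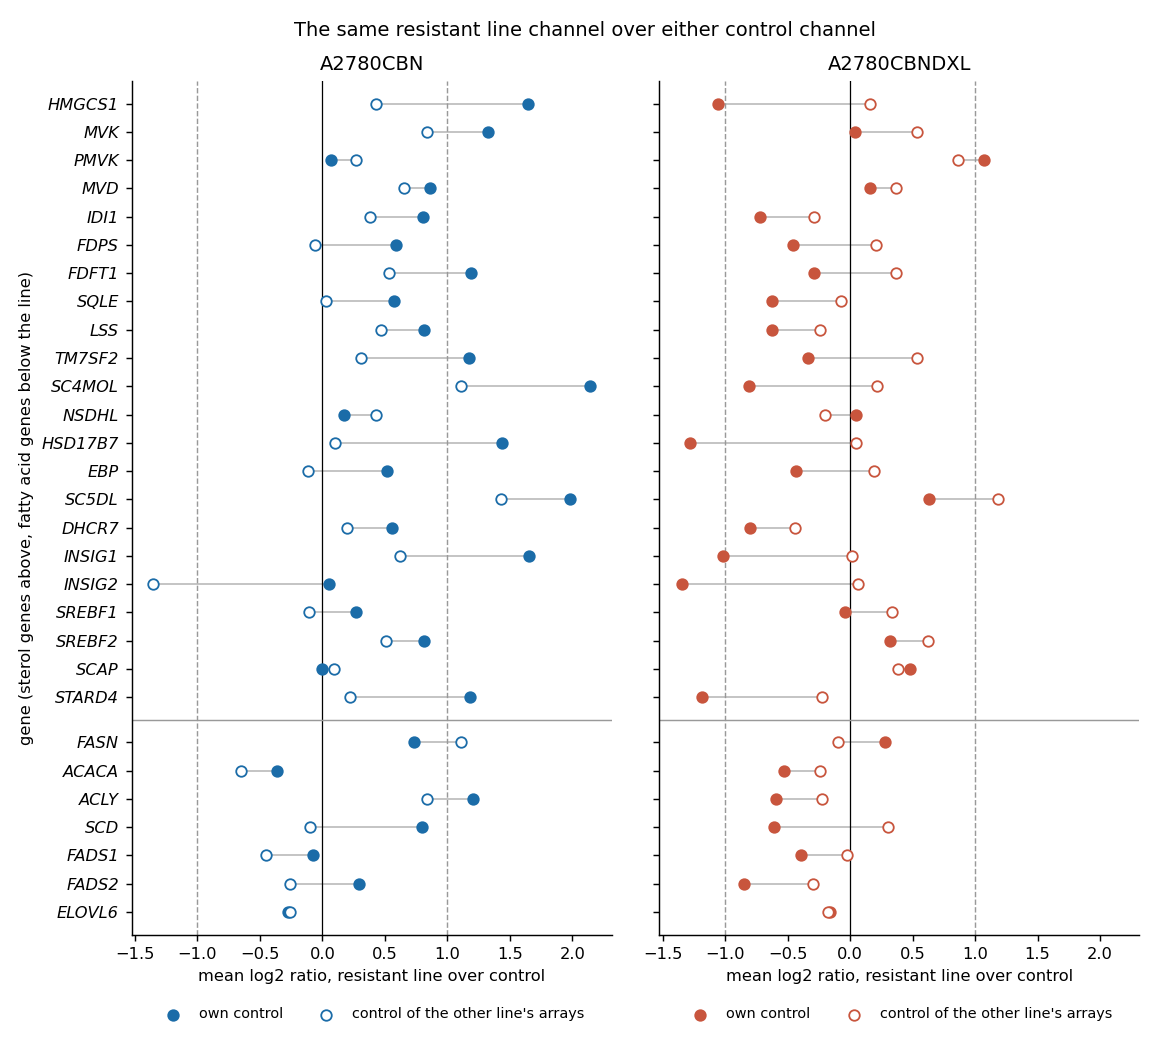
Mean log2 ratio of the resistant line over its own control (filled) and over A2780CC from the arrays of the other line (open) for the 29 genes, joined by grey lines, with dashed lines at 2-fold. With the exchanged control the sterol median of A2780CBN drops to 0.38 from 0.81, and that of A2780CBNDXL moves up to 0.16 from -0.38.

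Promoter windows are shown for SC4MOL, HMGCS1, INSIG1 and STARD4 and for SREBF2, to let short motifs be seen beside the ratios. The first named are a selection, made with the ratios known, from the sterol genes with opposite signs in the lines. HSD17B7, called in both lines with opposite signs, is not shown. Windows of 250 bases before a RefSeq transcript start on GRCh38.p14 were found for 26 of the 29 genes, with 36 windows in all, some of which overlap. Both strands were searched for the NF-Y box CCAAT, the E-box CACGTG and TCACNCCAC, a form of the sterol regulatory element that SREBP binds. The NF-Y box was in 18 of 26 windows of sterol genes and 5 of 10 of fatty acid genes, and in 32.0% of all 35116 windows. TCACNCCAC was in 1 window, that of SREBF2, and in 0.883% of all windows, and the E-box was in 4 windows, all of sterol genes, and in 6.34% of all. These matches are of letters only, and elements that differ from them or lie elsewhere were not searched. The motifs, on either strand, are in capitals, each sequence being read 5′ to 3′ on the strand of its gene.
SC4MOL, chr4:165327419-165327668, plus strand: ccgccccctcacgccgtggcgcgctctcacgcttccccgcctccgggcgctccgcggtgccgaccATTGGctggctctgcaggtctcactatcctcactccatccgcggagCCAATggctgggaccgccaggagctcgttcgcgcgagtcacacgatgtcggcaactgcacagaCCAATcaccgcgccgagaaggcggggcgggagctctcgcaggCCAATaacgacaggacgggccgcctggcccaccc
HMGCS1, chr5:43313413-43313662, minus strand: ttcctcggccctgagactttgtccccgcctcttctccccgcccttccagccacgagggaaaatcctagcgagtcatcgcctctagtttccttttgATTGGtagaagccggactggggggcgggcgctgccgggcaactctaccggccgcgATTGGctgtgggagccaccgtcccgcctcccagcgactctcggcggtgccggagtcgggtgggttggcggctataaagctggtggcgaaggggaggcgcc
INSIG1, chr7:155297628-155297877, plus strand: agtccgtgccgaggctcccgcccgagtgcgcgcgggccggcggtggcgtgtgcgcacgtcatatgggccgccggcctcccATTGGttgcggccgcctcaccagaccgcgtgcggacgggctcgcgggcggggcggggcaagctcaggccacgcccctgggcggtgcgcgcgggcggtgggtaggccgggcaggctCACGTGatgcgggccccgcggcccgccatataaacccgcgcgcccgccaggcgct
STARD4, chr5:111512536-111512785, minus strand: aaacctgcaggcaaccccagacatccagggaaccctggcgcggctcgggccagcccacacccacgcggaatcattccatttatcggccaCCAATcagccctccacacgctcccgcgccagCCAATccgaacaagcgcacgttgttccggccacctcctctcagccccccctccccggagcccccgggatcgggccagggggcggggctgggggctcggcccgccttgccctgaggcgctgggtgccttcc
SREBF2, chr22:41832855-41833104, plus strand: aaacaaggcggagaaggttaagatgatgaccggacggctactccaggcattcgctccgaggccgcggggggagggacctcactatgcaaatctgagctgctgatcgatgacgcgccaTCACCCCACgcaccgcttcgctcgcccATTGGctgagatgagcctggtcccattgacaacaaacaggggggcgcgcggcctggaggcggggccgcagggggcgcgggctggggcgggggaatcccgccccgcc
SC4MOL held 4 NF-Y boxes, this window of HMGCS1 and that of STARD4 held 2 each, INSIG1 held 1 beside an E-box, and the other window of HMGCS1 held 0. The number of boxes varied among genes with and without a call. NSDHL, near 0 in both lines, held 5. MVK also held 5, and it could not be counted in A2780CBN, where its dimmer probe had a mean of 1.21. MVD, FDPS and EBP held 3 each without a call, and the called TM7SF2 and HSD17B7 held 1 each. INSIG2 and PMVK held 0.

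Further genes of lipid metabolism were read from 4 lists, whose counts stand beside 8% higher and 4.55% lower among all genes in A2780CBN and 7.7% higher and 9.2% lower in A2780CBNDXL. With lists of 6 to 18 genes a single call is near these shares. The genes of these lists were read against their own control only, not with the controls exchanged. Of the 15 genes of sterol export and transport that could be counted in each line, 3 were higher and 0 lower in A2780CBN, and 1 was higher and 3 lower in A2780CBNDXL. LIPA, the lysosomal lipase that frees cholesterol from its esters, had 2.32 ± 0.41 in A2780CBN and -2.69 ± 0.39 in A2780CBNDXL. Its mean control intensity was 5742 beside the first line and 19440 beside the second, without scaling between arrays. The exporter ABCG1 was higher in A2780CBN, at 1.99 ± 0.39, and the exporter ABCA1 in A2780CBNDXL, at 1.87 ± 0.45. CH25H, a cholesterol hydroxylase, was at least 4.54-fold higher in A2780CBN, a lower bound, because the control signal did not clear background on any array. In A2780CBNDXL the lipoprotein receptors SCARB1 and VLDLR were lower, at -1.81 ± 0.21 and -4.94 ± 0.26, the latter with the line above background on 3 arrays.

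Of 6 genes of acetyl-CoA and NADPH supply, 1 was higher in A2780CBN and 0 passed in A2780CBNDXL. This was ACSS2, which makes acetyl-CoA from acetate, at 1.97 ± 0.50. Of 18 genes of fatty acid activation, elongation and glycerolipid synthesis, 3 were higher and 1 lower in A2780CBN, and 2 were higher and 3 lower in A2780CBNDXL. ACSL1, which activates long fatty acids, was higher in A2780CBN at 1.39 ± 0.08 and lower in A2780CBNDXL at -1.45 ± 0.16. LPIN1, a phosphatidate phosphatase, and ACACB, the mitochondrial carboxylase, were higher in A2780CBN at 1.41 ± 0.08 and 1.14 ± 0.56, and HSD17B12, an elongation reductase, was lower at -2.91 ± 0.25. In A2780CBNDXL the elongases ELOVL4 and ELOVL1 were higher at 3.74 ± 0.23 and 1.01 ± 0.17, and SCD5 and ACSL4 were lower at -3.63 ± 0.38 and -2.12 ± 0.06.

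Of 12 genes of fatty acid oxidation, 2 were higher and 1 lower in A2780CBN, and 0 were higher and 1 lower in A2780CBNDXL. CPT1A, which admits fatty acids to mitochondria, had 1.81 ± 0.12 in A2780CBN and -1.29 ± 0.08 in A2780CBNDXL. HADHA and ECHS1, enzymes of the oxidation cycle, had 1.07 ± 0.25 and -1.29 ± 0.33 in A2780CBN. Taken in the order given, the 4 lists had median log2 ratios of 0.27, 0.37, 0.43 and 0.13 in A2780CBN. In A2780CBNDXL the same lists had medians of -0.26, -0.33, -0.12 and 0.03.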

How the data were processed

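Per the file headers, the authors scanned the arrays with Agilent Feature Extraction 10.7.1.1 (slide 1) and 10.7.3.1 (slide 2). The deposited processed intensity of each channel had been background-subtracted and normalized for dye by the authors. The deposited raw and background-subtracted intensity served for alternatives. The sign rests on the labels of the forward arrays, and reverse arrays were turned over as their name states although their dye entries do not, after which arrays of opposite labelling correlated at 0.58 to 0.74 within a line. Outlier spots were left out. Ratios were averaged within and then over labelling directions. Promoter sequences are from RefSeq (GRCh38.p14), and probe coordinates are those of the files. All 29 genes were accounted for, and those past the rule were given array by array in the line where they passed. The others were given mostly by mean and SD, and further probes were not all given. The genes, lists and comparisons were chosen with earlier results of these data known. Alternatives were other normalizations, filters and fold limits, each slide, each array left out and a 3-way ANOVA. The call rule was tried on simulated arrays whose planted changes lay well above its limit. This does not show how it fares with changes near the limit. Precision is limited by the number of arrays. Scaling between arrays used Aquantile (limma 3.58.1, R 4.3.3), with Python 3.11.15, pandas 2.3.3 and numpy 2.4.6.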

Additional observations from a re-analysis of the deposited data

Results flagged for a closer look

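A total of 16 of the 29 genes had opposite signs in the lines on all arrays measured, which are repeats of 1 sample per line. Among the 23 counted in both lines 13 did so, as did 14.2% of all 16137 such genes. The difference between the lines was not tested, and the lines may share a control. Log2 ratios in A2780CBN and then in A2780CBNDXL were as follows. HMGCS1 had 1.65 and -1.06, INSIG1 had 1.65 and -1.02, and STARD4 had 1.18 and -1.19. HSD17B7 had 1.44 and -1.28, SC4MOL had 2.14 and -0.81, and TM7SF2 had 1.17 and -0.33. FDFT1 had 1.19 and -0.29, SQLE had 0.57 and -0.62, and LSS had 0.81 and -0.62. IDI1 had 0.80 and -0.72, FDPS had 0.59 and -0.45, EBP had 0.52 and -0.44, and DHCR7 had 0.55 and -0.80. Among the fatty acid genes ACLY had 1.21 and -0.59, SCD had 0.79 and -0.61, and FADS2 had 0.29 and -0.85. These are values of the brightest probe, and in TM7SF2, LSS, SCD and FADS2 another probe did not show the opposite signs. The channel levels show that the controls of the 17 sterol genes compared also differed, by a median of 0.63 on the log2 scale.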

How the results depend on the processing

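The alternative that moved most results was the control of the other line's arrays, added after seeing the data. It gave 3 changed sterol genes and a median of 0.38 in A2780CBN, and 1 gene and a median of 0.16, of opposite sign, in A2780CBNDXL. The fatty acid medians became -0.26, of opposite sign, and -0.20. Of the genes called in A2780CBNDXL, HMGCS1, HSD17B7, INSIG1 and INSIG2 changed sign, to 0.16, 0.050, 0.017 and 0.059. Among those under the limit SC4MOL, FDFT1, TM7SF2 and EBP did, to 0.22, 0.36, 0.54 and 0.19. FDPS, SREBF1 and SCD also did, to 0.21, 0.33 and 0.30, and NSDHL and FASN fell to -0.20 and -0.10. In A2780CBN FDPS, EBP, SREBF1, SCD and FADS2 changed sign, to -0.06, -0.11, -0.11, -0.10 and -0.26. INSIG2 went there to -1.35 and SCAP to 0.09. In A2780CBN SC5DL exceeded SC4MOL with this control, with the mean over probes and with normexp and loess. Normexp with loess left 2 sterol genes and a fatty acid median of -0.36 in A2780CBNDXL, and lowered the share of all genes called higher and lower to 2.36 and 1.00% in A2780CBN and 2.85 and 3.99% in A2780CBNDXL. A limit of 1.5-fold gave 13 and 11 sterol genes and 2 and 2 fatty acid genes, where 27.1 and 33.3% of all genes passed. The sterol median in A2780CBNDXL was -0.29 with the mean over probes, -0.46 on slide 1 alone and -0.44 with 3 arrays allowed, the last added after seeing the data, and -0.45 to -0.38 with an array left out. The 3-way ANOVA, whose error is that of repeat arrays, listed 8 of 19 sterol genes in A2780CBN as higher and 0 as lower. Of all genes it listed 7.90% there as higher and 4.47% as lower. In A2780CBNDXL it listed 1 of 20 sterol genes as higher and 4 as lower, where 7.13 and 8.43% of all genes were. Of the fatty acid genes the ANOVA listed 1 in A2780CBN and 0 in A2780CBNDXL. On simulated arrays it missed part of the changed genes, more of them in A2780CBNDXL, with either of 2 channel inputs tried. The second input, added after these simulations, gave the same counts. No paired analysis was possible because each line is 1 sample.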
